A study of Homo sapiens with 9 samples.

Results

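The sites described here are the autosomal γH2AX peaks that were listed under hydroxyurea (HU) in both replicates and under no other condition. A site is a peak of HU replicate 1 that overlaps a peak of HU replicate 2 by at least 1 bp and overlaps no peak of the untreated, APH or MMS lists. This rule selected the sites on the measured peaks themselves, so their presence under HU and their absence elsewhere are not findings. It gave 26005 sites among the 79891 autosomal peaks of HU replicate 1 (32.6%) and among 213253 autosomal peaks in the 8 lists of the series. The same rule read in the other direction, from HU replicate 2, gave 27261 sites among 69922 peaks (39.0%), and its values are given in the text as those of the reverse rule. The 8 libraries came from a human B-lymphoblastoid cell line (named GM09027A in the sample labels and GM07027 in the text of the study), an established line of immortalised B-lymphocytes, with 2 independent ChIP experiments per condition. Untreated cells were compared with cells kept for 24 h in hydroxyurea at 2 mM, in aphidicolin (APH) at 0.1 μg/mL or in methyl methanesulfonate (MMS) at 200 μM. All groups are the same line, so nothing here separates the response of this line from that of other cells. Peak positions hold no expression of marker genes, and the labelled cell type was not checked. A list holds no read numbers, so sequencing depth is unknown and no counting interval can be given.

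HU blocks ribonucleotide reductase, the enzyme that makes deoxynucleotides, and thereby slows replication forks in S phase. APH inhibits the replicative DNA polymerases, and MMS alkylates DNA bases. Stalled or broken forks activate the ATR and ATM kinases, which phosphorylate the histone variant H2AX on the chromatin around the damage, and an antibody to this form (γH2AX) recovers the DNA of that chromatin. Early replicating chromosome regions are in general rich in genes, in GC and in Alu elements, the short primate retrotransposons derived from 7SL RNA. Common fragile sites, in contrast, lie mostly in very long genes that replicate late.

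The sequences of the 2 strongest sites are shown as examples of sites outside genes and without Alu elements at their centre. Each is the central 300 bases of the site on the plus strand of GRCh38, read from the reference genome, where capitals would mark bases of Alu elements. The strongest site of all, chr15:67941284-67942186 (window chr15:67941586-67941885), lies 106702 bp from SKOR1, outside any annotated gene, and the second, chr20:36647349-36647651 (window chr20:36647351-36647650), lies 1153 bp from SLA2, an adaptor protein of lymphocyte receptor signalling, also outside any gene. Neither window holds an Alu element. Both windows are centred on the replicate 1 peak, and most of each lies outside the replicate 2 peak. That peak ends at 67941602 for the chr15 site and begins at 36647631 for the chr20 site.
chr15 site: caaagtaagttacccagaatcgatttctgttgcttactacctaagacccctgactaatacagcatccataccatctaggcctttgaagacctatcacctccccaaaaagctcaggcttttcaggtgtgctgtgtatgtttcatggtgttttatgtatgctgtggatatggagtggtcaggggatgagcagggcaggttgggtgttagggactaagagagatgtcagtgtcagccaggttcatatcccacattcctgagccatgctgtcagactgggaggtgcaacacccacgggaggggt
chr20 site: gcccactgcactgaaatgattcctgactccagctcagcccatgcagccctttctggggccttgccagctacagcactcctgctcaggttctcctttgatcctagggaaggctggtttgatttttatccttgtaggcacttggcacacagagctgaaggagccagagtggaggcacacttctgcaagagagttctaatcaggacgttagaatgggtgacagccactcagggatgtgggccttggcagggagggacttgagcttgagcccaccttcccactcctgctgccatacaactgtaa

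The 10 sites with the highest mean fold enrichment were 224 to 2217 bp wide, and 6 of them stood outside genes. The fold enrichment is the caller's ratio of ChIP to background reads at a peak. The chr15 site had a fold enrichment of 3.99 in replicate 1 and 3.57 in replicate 2, and the chr20 site had 4.64 and 2.84. An intergenic site at chr16:31233925-31236141, 2388 bp from TRIM72, had 3.18 and 3.97. A site at chr4:40052748-40052971, in an intron of the pseudogene ENSG00000205794 and 3826 bp from N4BP2, had 3.10 and 4.01. Of the other 6, a site at chr22:37256812-37257358 lay in an intron of RAC2, a small GTPase of blood cells (3.23 and 4.04), and one at chr10:5814889-5815436 in an intron of GDI2, a regulator of Rab GTPases (3.92 and 3.32). A site at chr19:4798482-4799394 lay in an exon of FEM1A, a substrate receptor of ubiquitin ligases (3.60 and 3.54). The remaining 3 were intergenic, at chr7:157303588-157304345 (2.65 and 4.69), chr17:48025831-48026120 beside COPZ2 (3.95 and 3.39) and chr1:226796373-226797266 (3.73 and 3.53). The 2 replicates ranked these strong sites differently, and across all sites the fold enrichments of the 2 replicates had a Spearman rho of 0.349 over 26005 sites, which share the rule that chose them and are not independent replicates.

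Most sites were modest enrichments over about 1 kb. The fold enrichment in replicate 1 ranged from 2.13 to 4.64 with a median of 2.74, and the matching peaks of replicate 2 had a median of 2.81. The median width was 1028 bp, and 2330 sites (8.96%) were 3 kb or wider. The overlap with the replicate 2 peak had a median of 521 bp, and the median covered share of the replicate 1 peak was 56.1%. The sites covered 36.6 Mb, 1.33% of the assembled autosomal bases. A q-value of at most 0.05 in both lists was reached by 16222 sites (62.4%). The widest site spanned 16288 bp at chr20:49752006-49768293, 38128 bp from B4GALT5, and had values of 2.98 and 2.86. A second one of 13111 bp lay in an intron of LITAF on chromosome 16, a regulator of TNF expression (2.92 and 3.03). The other 3 of the widest 5 spanned 12593 to 12859 bp between genes, near BPTF, SORL1 and ECHDC3.

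The limits of the rule cut through peaks of like strength. The 853 sites that met replicate 2 by 50 bp or less had a median fold enrichment of 2.69, and the 667 peaks of replicate 1 that missed a replicate 2 peak by under 50 bp, and overlapped no other condition, had 2.67. The 157 sites with a peak of another condition less than 50 bp away had a median of 2.75, and the 249 replicated peaks that overlapped one by 50 bp or less also had 2.75. Of 34576 peaks of replicate 1 found in replicate 2, 75.2% met no peak of another condition. The lists of the other conditions were shorter, with 4779 and 4327 autosomal peaks (untreated), 17658 and 14009 (APH) and 12202 and 10465 (MMS), so a site can also have γH2AX below the threshold in those cells. Peaks of the other conditions were often near. APH replicate 1 had a peak within 100 kb of 87.2% of the sites and untreated replicate 2, the shortest list, of 53.5%. The share of all bases within 100 kb of such peaks was not computed. These shares therefore do not show a closeness beyond what the number of peaks gives.

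Gene-rich chromosomes carried most sites per Mb of assembled bases. Chromosome 19 had 24.2 sites per Mb (24.5 by the reverse rule), chromosome 17 had 22.3 (23.4) and chromosome 22 had 21.7 (22.6). At the other end, chromosome 4 had 2.92 (3.09), chromosome 13 had 3.23 (3.38) and chromosome 18 had 3.27 (3.35). The highest was 8.27 times the lowest (7.94 by the reverse rule). This ratio was 5.30 without HU replicate 2 and 13.1 with the HU lists shortened to the length of APH replicate 1. Chromosome 1 held the largest number, 3526 sites or 13.6% of the total, at 15.3 per Mb. Neighbours in this order were often closer to each other than the 2 rules were, as with chromosomes 16, 20 and 1 at 15.7, 15.3 and 15.3 against 16.5, 16.4 and 16.3 by the reverse rule.

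**Figure D1:**
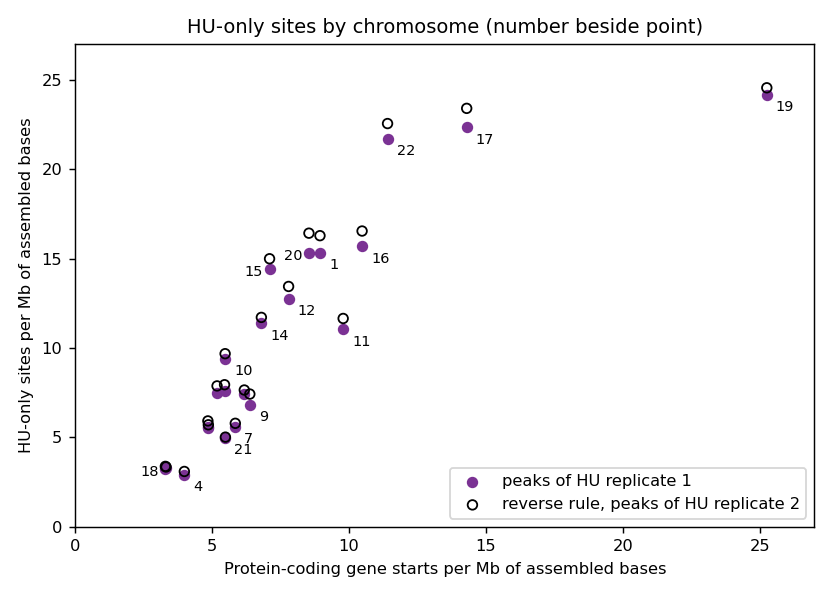
HU-only sites per Mb (vertical axis) against protein-coding gene starts per Mb (horizontal axis) for the 22 autosomes, both per Mb of assembled bases, with filled points for the sites and open points for the reverse rule. Chromosomes 19, 17 and 22 lie highest at 21.7 to 24.2 sites per Mb, and chromosome 11 lies below chromosomes with fewer genes, at 11.04.

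The order of the chromosomes followed their gene content with a few departures. Sites per Mb had a Spearman rho of 0.913 with protein-coding gene starts per Mb over the 22 autosomes (0.910 by the reverse rule), a description over chromosomes that share the libraries. In the 6 whole lists of the other conditions rho was from 0.767 to 0.888, but single chromosomes took other places, as with chromosome 9, second in untreated replicate 1 at 4.21 peaks per Mb. Chromosome 11, with 9.79 gene starts per Mb, had 11.04 sites per Mb, while chromosome 15, with 7.10 gene starts per Mb, had 14.4. The 1 Mb bins within 5 Mb of a chromosome end held 6.01% of the sites (5.88% by the reverse rule) and 6.57% of the assembled bases. The share of HU replicate 1 peaks that qualified as sites was also highest on chromosome 19 (38.7%) and lowest on chromosome 18 (22.6%), against 32.6% over all autosomes.

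Within chromosomes, sites were concentrated in gene-dense megabases and nearly absent from megabases without genes. The autosomes were divided into 2765 bins of 1 Mb with at least 50% of bases assembled, which were grouped by the number of protein-coding gene starts in the bin. The 414 bins with no start held 37 sites, or 0.0908 per Mb (0.0884 by the reverse rule), and 406 of these bins (98.1%) had none. Density then rose with each class. It was 1.04 sites per Mb in bins with 1 to 2 starts (1.07), 4.68 with 3 to 5 (4.92), 11.7 with 6 to 10 (12.3), 24.0 with 11 to 20 (25.04) and 36.1 with more than 20 starts (37.9), where the values in parentheses are those of the reverse rule. The 202 bins with more than 20 starts were 7.31% of the bins and held 27.9% of the sites, but 16 of them held none.

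The gradient was present on each autosome. Bins with at least 11 starts had 4.71 times (chromosome 4) to 21.7 times (chromosome 22) the sites per Mb of bins with at most 5 starts on the 21 autosomes where both could be counted. On chromosome 19 the 7 bins with at most 5 starts held no site and the 45 with at least 11 had 31.4 per Mb. Across all bins, site density had a Spearman rho of 0.696 with gene starts, 0.647 with GC content and 0.716 with the Alu share of the bin, and these measures are themselves related.

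**Figure D2:**
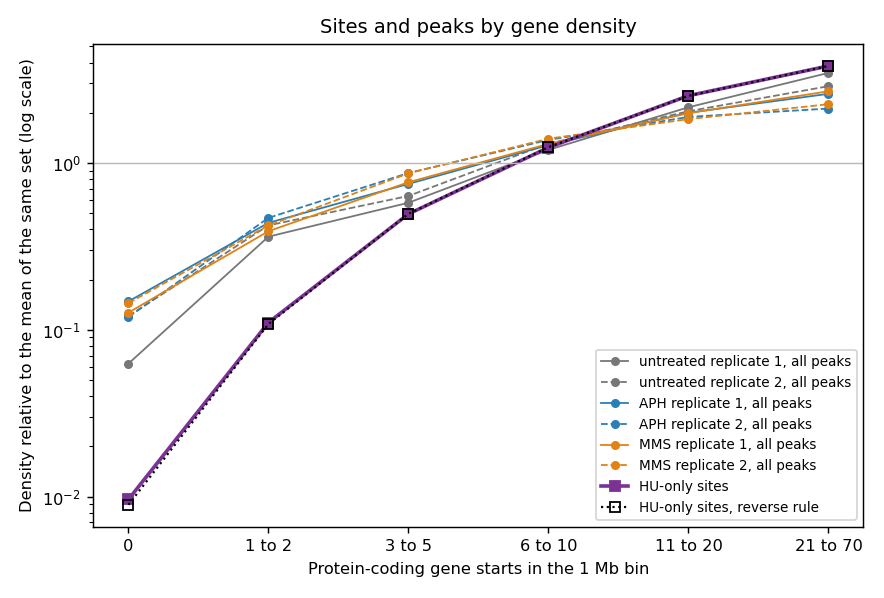
Density relative to the mean of the same set (log scale) in 1 Mb bins grouped by protein-coding gene starts, for HU-only sites by both rules and for all peaks of the 6 untreated, APH and MMS lists. In bins without a start the sites fall to 0.00961 of their mean and the 6 lists to between 0.0627 and 0.148, and in bins of more than 20 starts the sites reach 3.82 times their mean and the lists 2.12 to 3.47 times.

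The profile over gene density was compared with those of other peak sets. In bins without a start, the density of the 6 lists was between 0.0627 (untreated replicate 1) and 0.148 (APH replicate 1) of the mean of the list, against 0.00961 for the sites. The whole HU lists, whose peaks the rule did not have to select, had 0.0181 and 0.0159. The 8571 replicated HU peaks shared with another condition had 0.00395, below the sites, and 4.62 times their mean in bins of more than 20 starts, above the sites. The differences in bins without a start were not tested. In bins of more than 20 starts, the 6 lists reached 2.12 to 3.47 times their mean and the HU lists 3.20 and 3.43 times. The share of a whole list in these gene-dense bins was 23.4% and 25.1% for HU, 25.4% and 21.1% for untreated cells, 19.0% and 15.5% for APH, and 19.7% and 16.5% for MMS. The HU lists overlapped the untreated lists and lay above the other 4. The mean of the 2 HU lists was 24.2% ± 1.204 (SD, n = 2) and that of the 6 other lists 19.5% ± 3.54 (SD, n = 6), a difference of 4.71 percentage points that did not pass an exact permutation test (two-sided p = 0.143, adjusted p = 0.358 over 4 shares). The smallest p that 2 against 6 lists allows is 0.0357. With the strongest 4327 peaks of each list, the difference was 12.3 points with p = 0.0357 by the same exact test. For whole lists without untreated replicate 1, the difference was 5.88 points with an exact p of 0.0476. Neither p was adjusted over the 4 shares. The cut kept all peaks of untreated replicate 2 but only the strongest of the 79891 and 69922 HU peaks. The part of peak strength in the 12.3 points was not tested.

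Sites lay close to genes but less often inside them than the bases around them. Of the site midpoints, 62.0% fell in an annotated gene of any type (61.6% by the reverse rule), 9.15% in an exon and 52.8% in an intron, and 38.0% were intergenic. Genes cover 61.6% of the assembled autosomal bases, but 72.9% of the bases of the megabases that hold the sites, when each megabase is weighted by its number of sites. Exons cover 5.44% of autosomal bases and 10.2% of the bases of those megabases. The shortfall in genes was present in each class of gene density from 1 start upward. The exception was the class without a start, with 54.1% of its 37 sites in genes against 36.7% of the bases. In bins of more than 20 starts 66.7% of the sites lay in genes against 71.0% of the bases, in bins of 6 to 10 starts 57.2% against 69.2%, and in bins of 1 to 2 starts 49.7% against 56.8%.

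The share in genes varied among the other HU peaks and the other conditions. The 45315 peaks of HU replicate 1 with no counterpart in replicate 2 lay in genes in 72.0% of cases, against 72.1% of the bases of their own megabases. The 8571 replicated HU peaks that overlapped another condition had 65.1% against 73.0%, a shortfall like that of the sites, and the untreated lists had 63.7% against 69.4% and 64.6% against 68.9%. The sets chosen by the same rule for the other drugs were small, with 73.5% of 517 APH-only sites and 83.2% of 167 MMS-only sites in genes. For whole lists the shares in genes were 68.0% and 67.7% for HU, 63.7% and 64.6% for untreated cells, 68.0% and 68.8% for APH, and 77.2% and 77.3% for MMS. The 2 HU lists lay inside the range of the others. The difference of -2.12 points between the means, 67.8% ± 0.216 (SD, n = 2) and 69.9% ± 6.01 (SD, n = 6), had an exact permutation p of 0.714 (adjusted p = 0.786). The share in exons, 9.61% under HU and 9.80% in the others, also did not pass the threshold (exact p = 0.786, adjusted p = 0.786). The sign of this small difference turned without MMS replicate 1, where it was 0.112 points (exact p = 0.857).

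The strongest sites were the least genic. Sites were divided into 4 groups of equal size by the mean of the fold enrichments in both replicates, a split that uses the readout and was added after the data were seen. From the weakest to the strongest group, 66.8%, 64.3%, 61.2% and 55.5% of the sites lay in genes, and the Alu share of the 1 kb around the midpoints was 14.03%, 19.8%, 23.8% and 25.8%. Gene density ran the other way from gene position, since the bins around the sites held on average 12.4 protein-coding starts in the weakest group and 19.3 in the strongest. The median width rose alongside, from 866 to 1180 bp. When the HU lists were shortened to their strongest 17658 peaks, the length of APH replicate 1, the rule left 2989 sites, of which 53.2% lay in genes.

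**Figure D3:**
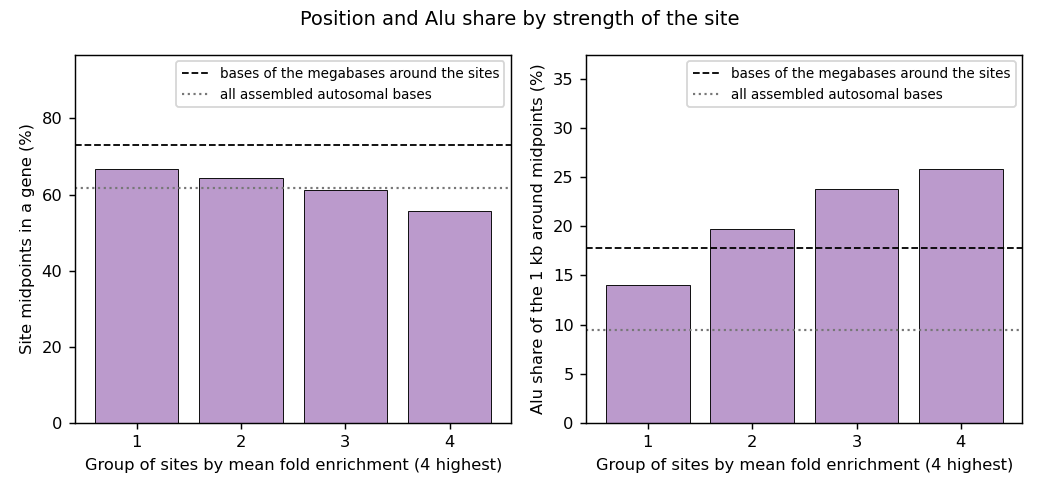
Share of site midpoints in genes (left, percent) and Alu share of the 1 kb around midpoints (right, percent) for 4 groups of the sites by mean fold enrichment, each bar 1 group of 6501 or 6502 sites, with dashed lines for the bases of the megabases around all sites and dotted lines for all assembled autosomal bases. From group 1 to group 4 the share in genes goes from 66.8% to 55.5% and the Alu share from 14.03% to 25.8%.

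Around the starts of protein-coding genes, sites were sparse at the start itself and dense just beyond it. Within 1 kb of a start there were 10.1 sites per Mb (11.7 by the reverse rule), with 13.5 upstream and 6.84 downstream. Between 1 and 5 kb the density was 35.4 per Mb, with 35.7 upstream and 35.0 downstream. It then fell to 29.4 at 5 to 10 kb, 24.3 at 10 to 20 kb, 14.5 at 20 to 50 kb and 6.47 at 50 to 100 kb, and was 0.515 at 200 to 500 kb and 0.0243 beyond 500 kb. Between 10 and 50 kb the upstream side was denser, with 27.1 against 21.9 per Mb at 10 to 20 kb and 17.2 against 12.3 at 20 to 50 kb. The median site lay 15.9 kb from the nearest protein-coding start, while the median assembled base lay 89.9 kb away. Only 0.992% of the sites were more than 200 kb from a start, against 32.4% of the bases.

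**Figure D4:**
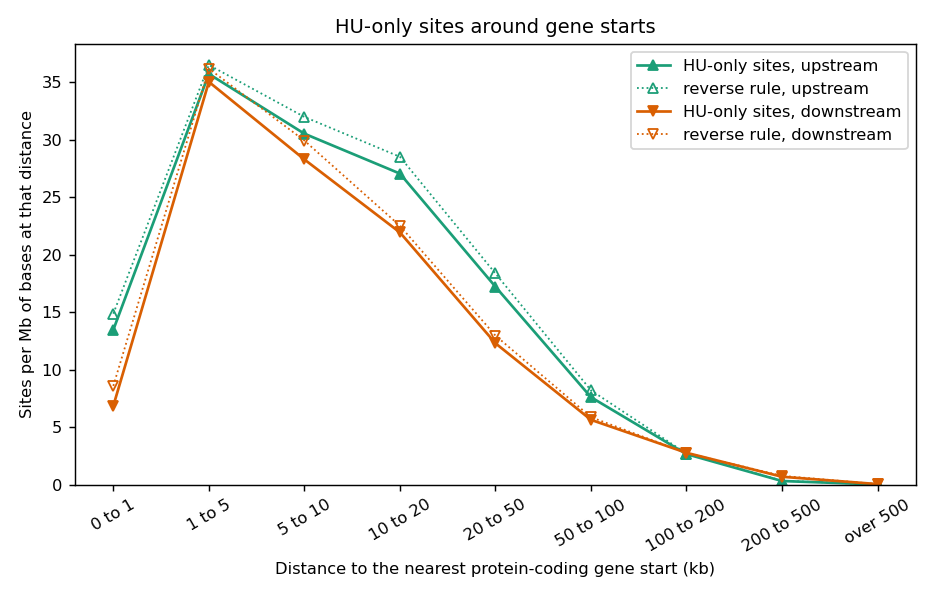
HU-only sites per Mb of assembled bases (vertical axis) by distance to the nearest protein-coding gene start in kb (horizontal axis, classes of unequal width), upstream and downstream of the start in the direction of the gene, with dotted lines for the reverse rule. Density is 13.5 upstream and 6.84 downstream within 1 kb, is highest at 1 to 5 kb, and is near 0 beyond 200 kb.

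The low density at the start was not particular to the sites. In each of the 8 whole lists the density within 1 kb of a protein-coding start was below that at 1 to 5 kb, with 28.9 against 96.3 per Mb in HU replicate 1, 1.80 against 6.04 in untreated replicate 1, 5.51 against 18.4 in APH replicate 1 and 3.89 against 13.9 in MMS replicate 1. For starts of genes of any type, 4.95% of the sites lay within 1 kb, against 3.85% of autosomal bases and 6.72% of the bases of their megabases. The share of whole lists within 1 kb of any start was 4.70% and 4.98% under HU and between 3.99% and 4.90% in the other 6. The difference of 0.423 points was not past the threshold (exact permutation p = 0.179, adjusted p = 0.358). It was 1.17 points for the strongest 4327 peaks of each list, a cut that falls mostly on the HU lists (exact p = 0.0357, not adjusted).

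Inside genes, sites were most frequent toward the 5′ end. In 11207 protein-coding genes of at least 20 kb, 16.7% of the sites in them fell in the first 10% of the gene length from the 5′ end (16.6% by the reverse rule), 7.56% in the seventh of 10 equal parts and 10.96% in the last. The first part of these genes begins at the start and runs well past the 1 kb in which sites were sparse. Peaks of HU replicate 1 that were not replicated were spread more evenly, with 12.7%, 8.65% and 10.9% in the same parts.

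Among 19111 protein-coding autosomal genes, 5746 (30.1%) held the midpoint of at least 1 site, and 5513 of them also did so by the reverse rule. A single site was found in 2651 genes, 787 genes had 5 or more and 132 had 10 or more. A site inside overlapping genes was counted in each of them. Genes of 20 to 50 kb were hit most often (40.5% of 4685 genes), and the density per 100 kb of gene was highest at 10 to 20 kb (3.54 sites per 100 kb) and fell with length above that. It was 1.78 in genes of 50 to 100 kb, 0.316 in genes of 200 to 500 kb, 0.0846 in genes of 500 to 1000 kb, and 0.00752 in the 67 genes of at least 1 Mb, 3 of which held a site. Whole lists also fell with length over the same classes, from 10 to 20 kb to at least 1 Mb. Peaks per 100 kb went from 9.76 to 0.112 in HU replicate 1, from 1.55 to 0.118 in MMS replicate 1, from 0.576 to 0.0311 in untreated replicate 1 and from 1.86 to 0.540 in APH replicate 1, where FHIT and WWOX, both over 1 Mb, held 163 and 160 peaks.

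The genes with most sites were of moderate to large size and of varied function. PALM2AKAP2, which encodes paralemmin and A-kinase anchoring proteins, held 33 sites in 674.2 kb (39 by the reverse rule), from 59 and 56 peaks in the HU lists against 4 and 1 untreated, 2 and 5 APH and 5 and 5 MMS peaks. RAD51B, a gene of homologous recombination repair, held 30 sites in 910.4 kb (30), from 89 and 80 HU peaks against 5 and 5 untreated, 12 and 8 APH and 7 and 7 MMS peaks. CTNNA1 (α-catenin) held 25, PEBP4 held 24, SLC1A2 (a glutamate transporter) held 23 and RBM20 (a splicing regulator) held 22. DGKG (a diacylglycerol kinase) and DAPK2 (a death-associated kinase) held 19 each, and IL19 (a cytokine of the IL-10 family), LHFPL2, SIL1 (a cofactor of an endoplasmic reticulum chaperone) and MAPK6 (an atypical MAP kinase) held 18 each. In each of these 12 genes, both HU lists had more peaks than any of the other 6 lists, which the rule favours. RAD51B and SIL1 had 3.29 and 5.19 sites per 100 kb, whereas IL19 had 24.9 in 72.2 kb.

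Density was ranked among genes of at least 20 kb with at least 5 sites, and shorter genes with fewer sites can have higher values. The leading 10 were 20.5 to 40.04 kb long, near the median of all genes. PATZ1, a zinc finger transcription factor, had 7 sites in 20.5 kb, or 34.1 per 100 kb (24.3 by the reverse rule). FGR, a Src-family kinase of blood cells, had 30.3 (17.3), and MTCH2, a protein of the mitochondrial outer membrane, had 27.7 (35.6). CHRNB3, a nicotinic receptor subunit, had 27.5 (22.5), FAM228A 27.1 (23.3), and CD4, the T-cell coreceptor, 26.5 (29.5). PCP4L1, SLC2A7 (a hexose transporter), ZNF771 (a zinc finger protein) and LDHAL6A (a lactate dehydrogenase-like gene) had 25.2 to 26.2. With 6 to 11 sites each, the 2 rules gave an order of these genes that differed. The 5 longest protein-coding genes without a site were RBFOX1, CNTNAP2, PTPRD, DLG2 and CSMD1, of 2060 to 2474 kb. RBFOX1 is a splicing factor, CNTNAP2 an adhesion protein of the neurexin family, PTPRD a receptor phosphatase and DLG2 a synaptic scaffold. Neither HU list had a peak in any of the 5, and each of the 5 had a peak in at least 1 other list, with RBFOX1 at 0 and 5 untreated, 6 and 5 APH and 7 and 6 MMS peaks.

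Gene groups were read against the 30.1% of protein-coding genes that held a site. In the B-cell lists, 11 of 20 transcription factors and 12 of 20 surface and signalling genes held one (11 and 10 by the reverse rule). They had 1.75 and 2.30 sites per 100 kb against 1.104 over all protein-coding genes, whatever their length. The densest factors were IRF8 (12.8 per 100 kb, and 12.8 by the reverse rule), POU2F2 (10.9 and 7.24) and RUNX3 (10.7 and 7.62). The densest of the others were CD79B (27.8 and 27.8), TNFRSF13C (20.9 and 20.9) and FCER2 (14.9 and 7.47). CD79B, a signalling chain of the B-cell receptor, and TNFRSF13C held 1 site each. Of 23 genes of the ATR checkpoint and of fork protection, 11 held a site at 2.68 per 100 kb, led by TIMELESS (15.1), RPA2 (12.9) and CDC25A (12.8). By the reverse rule 10 did, led by CDC25A (25.6), TIMELESS (18.15) and RAD9A (17.4). Of 22 genes of the replisome and of nucleotide supply, 12 did, at 4.41 per 100 kb, led by the helicase subunits MCM3 (24.0), MCM7 (20.6) and MCM5 (15.8). MCM7 held 2 sites, as did RRM2, a subunit of the target of HU. Of 20 liver genes, 6 held a site at 1.62 per 100 kb, with TAT (17.5), HPX (17.3) and TTR (9.56) highest. TAT and HPX held 2 sites each. The groups differ in gene length, which bears on the chance of holding a site: the median was 105.3 kb for the B-cell factors, 20.3 kb for the B-cell surface genes, 49.8 kb for the ATR genes, 31.3 kb for the replisome genes and 23.1 kb for the liver genes. By length class, all protein-coding genes had 2.99 sites per 100 kb at 20 to 50 kb and 0.927 at 100 to 200 kb. The B-cell surface, ATR and liver genes, at 2.30, 2.68 and 1.62, lay below the class of their median length. By the reverse rule the ATR genes lay above it, at 3.27 against 3.10. The replisome genes and B-cell factors, at 4.41 and 1.75, lay above theirs. The part of gene length in these shares was not tested.

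The listed neuronal genes and large genes of common fragile sites were nearly empty. Not every long gene was, nor every gene in the band of a common fragile site. RAD51B, which lies in such a band but is in neither list, held 30 sites in 910.4 kb. Of 20 neuronal synapse and channel genes, 2 held a site, among them CACNA1E, a calcium channel subunit, at 0.605 per 100 kb. Their median length was 552.7 kb against 27.9 kb for all protein-coding genes. Of all protein-coding genes, 27.1% of those of 200 to 500 kb and 17.8% of those of 500 to 1000 kb held a site. These shares, rather than the 30.1% of all genes, are those to read the neuronal count against. Whether the neuronal genes differ from other genes of their length was not tested. None of the 10 large genes of common fragile sites, which include FHIT, WWOX, MACROD2, LRP1B, IMMP2L, LSAMP, CTNNA3, DLG2 and NBEA, held a site. Their median length was 1442 kb, and of all 67 protein-coding genes of at least 1 Mb only 3 (4.48%) held one, the share against which the count is to be read. All peaks of the HU lists in these 10 genes numbered 4 and 5, against 6 and 6 in untreated cells, 21 and 19 under MMS and 332 and 106 under APH. Per 100 kb these were 2.22 and 0.709 peaks under APH and 0.0268 and 0.0335 under HU, although the HU lists were longer. FHIT and WWOX held most of the APH peaks, with 163 and 48 in FHIT and 160 and 53 in WWOX, where the HU lists had 2 and 1 in FHIT and none in WWOX. These 2 genes were singled out after their values were seen.

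Sites came in clusters at several scales. The variance-to-mean ratio of sites per 1 Mb bin was 34.0 (36.04 by the reverse rule), where a ratio of 1 is that of a Poisson count. No site was found in 1433 of 2765 bins (51.8%), and 216 bins (7.81%) held 50% of all sites. The densest 276 bins held 58.5% of the sites, with at least 33 sites each, and averaged 18.0 protein-coding starts against 6.90 over all bins. Only 33.3% of these dense bins belonged to the class of more than 20 starts. The longest stretch of bins without a site was 24 Mb, on chromosome 3 from 74000001 to 98000000, and the longest with at least 10 sites in every bin was 14 Mb, on chromosome 19 from 38000001 to 52000000. Adjacent bins had a Spearman rho of 0.510 over 2739 pairs. Clustering in megabases was not particular to the sites. The untreated lists had 60.6% and 54.7% of their peaks in their own densest 10% of bins. The replicated HU peaks shared with another condition had 64.0%, and the HU, APH and MMS lists had 36.2% to 48.3%. The variance-to-mean ratio was 62.9 and 61.2 in the whole HU lists.

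At short range, the median gap between consecutive sites was 6.79 kb, whereas even spacing over the autosomes would give 106.0 kb, and 8.17% of the gaps were over 100 kb. A neighbour within 10 kb was found for 78.0% of the sites (79.2%). In the longer whole HU lists it was found for 87.3% and 85.8% of the peaks, and in the 6 shorter lists for 21.3% to 42.0%. Joined at gaps of at most 10 kb, the sites formed 10420 chains, of which 5725 were single sites (22.01% of all sites), and 368 chains of 10 or more sites held 18.96% of them. The caller's peaks are cut from broader enrichment at its threshold, so neighbouring sites in a chain need not be separate events.

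The 5 longest chains ran over 127.0 to 178.8 kb. Site counts given here beside gene names are those of the whole gene, which can extend beyond the chain. The longest, 31 sites at chr19:17768389-17947197, passed FCHO1, B3GNT3, JAK3 (the kinase of cytokine receptors with the common γ chain), SLC5A5 and CCDC124, with 38 and 42 peaks in the HU lists and at most 1 in each other list. A chain of 32 sites at chr7:129044053-129210677 ran from TNPO3 (5 sites) past TSPAN33 (5 sites), which codes for a tetraspanin, to SMO (6 sites), the Hedgehog signal transducer. A chain of 33 sites at chr1:206723856-206888589 ran from MAPKAPK2 (9 sites) through the cytokine genes IL10 (1 site) and IL19 (18 sites), with 42 and 41 HU peaks, 3 and 0 untreated, 0 and 3 APH and 0 and 0 MMS peaks. A chain of 26 sites at chr14:49906868-50044749 lay along the lncRNA gene LINC01588 and in no protein-coding gene. The fifth, 25 sites at chr1:235854039-235981042, joined LYST (8 sites), the lysosomal trafficking regulator, to NID1 (2 sites). Between 31.5% and 44.5% of each chain was covered by sites. More HU peaks than peaks of other lists in these chains is a contrast that the rule favours.

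The 5 bins with most sites lay on 5 chromosomes and had between 9 and 49 protein-coding starts. The highest count, 117 sites (111 by the reverse rule), was in chr2:38000001-39000000, which has 9 protein-coding starts, and the 2 genes with most of them were lncRNA genes, LINC02613 with 26 and CYP1B1-AS1 with 14. The HU lists had 184 and 181 peaks in this bin, against 2 and 4 untreated, 7 and 5 APH and 5 and 5 MMS peaks. The rule that chose the sites favours this contrast, and the HU lists are the longest. The next were chr15:40000001-41000000 with 116 sites (112) and 30 starts, where PAK6, a p21-activated kinase, held 8 and the lncRNA gene ENSG00000259536 held 7, and chr3:196000001-197000000 with 113 (105) and 21 starts, where TFRC, the transferrin receptor, and PIGX, of glycolipid anchor synthesis, held 10 each. The bin chr11:65000001-66000000 had 112 (114) sites and 49 starts, with 8 in the protein-coding gene ENSG00000285816 and 6 in POLA2, the B subunit of DNA polymerase α, which overlaps it. The bin chr6:36000001-37000000 had 105 (103) sites and 18 starts, with 15 in CPNE5 and 8 in PNPLA1.

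The peaks of untreated, APH and MMS cells were also more frequent in the bins with most sites than the bins' share of bases. The densest 276 bins hold 10.01% of the assembled bases and held 30.9% and 25.8% of the untreated peaks, 24.4% and 21.2% of the APH peaks, and 26.6% and 23.4% of the MMS peaks. The HU lists, which chose the bins, had 44.9% and 47.5%. Both APH lists lay below both untreated lists, with means of 22.8% ± 2.25 (SD, n = 2) and 28.3% ± 3.67 (SD, n = 2), and the exact permutation p of 0.333 (two-sided, adjusted p = 0.666) is the smallest that 2 against 2 allows. The MMS lists, at 24.99% ± 2.26 (SD, n = 2), overlapped the untreated ones (exact p = 0.667, adjusted p = 0.667). Peaks of HU that overlap these lists had been removed from the sites, so the bins are not fully independent of them.

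The sites were GC-rich as their surroundings were, and were richer in Alu elements. The mean GC content of the 1 kb around midpoints was 44.8% (44.9% by the reverse rule), against 41.0% of all autosomal bases and 45.3% in the megabases around the sites. A run of at least 20 A or T was found in 6.13% of the sites, against 5.54% of all 1 kb windows and 8.93% of the windows of those megabases. Alu elements made up 20.9% of the 1 kb around midpoints (20.9%), against 9.43% of autosomal bases and 17.8% of the surrounding megabases. Of the sites, 12.7% had at least 50% Alu bases in that 1 kb, compared with 3.88% of all 1 kb windows. Of the sites, 63.1% overlapped an Alu element at 1 base or more of their width. In bins of more than 20 starts the Alu share around midpoints was 27.04% against 19.5% of the bases, and in bins of 1 to 2 starts 15.0% against 5.68%, but in bins without a start it was 2.34% (37 sites) against 3.90%.

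**Figure D5:**
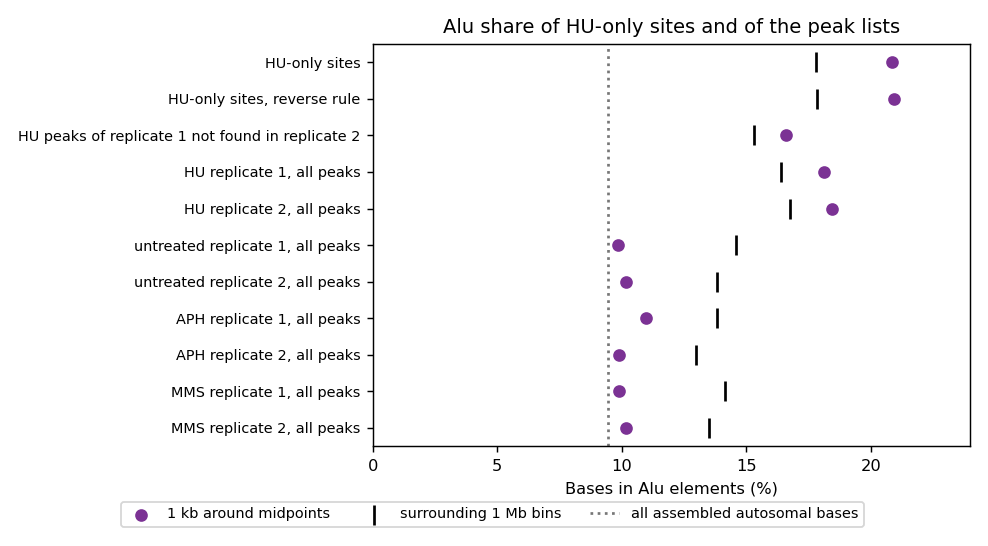
Bases in Alu elements (percent) in the 1 kb around peak midpoints (points) and in the 1 Mb bins around the same peaks (vertical ticks), for HU-only sites by both rules, unreplicated HU peaks and the 8 whole lists, with a dotted line for all assembled autosomal bases. Sites and HU peaks lie to the right of their ticks, at 16.6% to 20.9%, and the untreated, APH and MMS lists lie to the left of theirs, at 9.86% to 10.96%.

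The Alu share set both whole HU lists apart from the others. It was 18.1% and 18.4% of the 1 kb around midpoints in the HU lists, 9.86% and 10.2% in the untreated lists, 10.96% and 9.87% in the APH lists, and 9.89% and 10.2% in the MMS lists, so the groups did not overlap. The means were 18.3% ± 0.220 (SD, n = 2) and 10.2% ± 0.421 (SD, n = 6), a difference of 8.11 points with an exact permutation p of 0.0357 (two-sided), the smallest possible here. This test was added after the share in the sites had been seen, and its p was not adjusted. The sites are themselves 32.6% of the peaks of HU replicate 1, and the peaks they match are in HU replicate 2. The test is therefore not independent of the sites that prompted it. With the replicate numbers as blocks, the exact permutation p was 0.0625. Leaving out either HU list gave a difference of 8.27 or 7.96 points, for which 1 against 6 lists can give no p below 0.143. Against the megabases around their own peaks, the 6 other lists had 0.677 to 0.792 times the Alu share, both HU lists 1.1 times, and the sites 1.17 times. Peaks not found in replicate 2 had 16.6% Alu bases, 1.08 times their surroundings, whereas the replicated HU peaks shared with another condition had 17.7% against 17.8%, a ratio of 0.996. Reads of low mapping quality had been removed before peak calling, which bears on repeats in all 8 lists, and its part in this difference was not tested.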

How the data were processed

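The deposited peak lists hold, per the file headers and labels, 1 broad γH2AX peak per line for each ChIP library. The authors aligned reads with Bowtie2 to GRCh38, removed low-quality and duplicate reads and blacklisted regions, and called peaks in each replicate against input with MACS2. Each deposited peak carries a fold enrichment (a ratio of ChIP to background), a −log10 p and a −log10 q of the caller, whose p-value and q-value are not tests between conditions. The deposited score column was not used. The depth of the libraries is unknown, so no counting interval can be given. The smallest −log10 p in the lists was 3.00 to 3.01.

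Sites were found by the rule stated in the report on the 22 autosomes (Python 3.11.15, numpy 2.4.6, pandas 2.3.3, scipy 1.17.1, pysam 0.24.0, matplotlib 3.10.9). Position was that of the midpoint against GENCODE 44 genes. Alu elements were found with BLAST 2.17.0 from 7SL RNA and then from a 280 bp element found with it, at an E-value of at most 1e-05, joined at gaps of up to 30 bp and kept from 100 bp, which gave 947919 elements. Shares were compared between whole lists with two-sided exact permutation tests, adjusted by Benjamini-Hochberg. The scripts were tested on simulated peaks. Members and gene lists were chosen with earlier results of these data known. Named were the 10 sites of highest mean fold enrichment, the 5 widest sites, the 5 longest chains, the 5 bins with most sites and 2 genes in each, the 12 protein-coding genes with most sites, the 10 densest of at least 20 kb with at least 5 sites, the 5 longest without a site, and the 3 densest members of each gene list. Alternatives changed the overlap, the fold and q-value limits, the distance to other peaks, the bin size, the gene set and the lists used. The Alu comparison of whole lists and the division by fold enrichment were added after the data were seen. Input libraries were not analysed here. A few of the genes and sequences that these rules select are not reported here.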

Additional observations from a re-analysis of the deposited data

How the results depend on the processing

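With 50% of the peak covered, the rule gave 14313 sites, with a chromosome ratio (highest over lowest sites per Mb) of 8.99, 61.0% in genes, a rho with gene starts of 0.670 and a variance-to-mean ratio of 20.6. With a q-value of at most 0.05 in both HU lists, these were 16491 sites, 10.8, 59.4%, 0.669 and 26.3, with 22.4% Alu bases. With a fold enrichment of at least 2.5 in both, the chromosome ratio was 9.97, the share in genes 61.3%, rho 0.692, the variance-to-mean ratio 32.1 and the Alu share 22.2%. With no peak of another condition within 1 kb, the share in genes was 61.4%, rho 0.688 and the variance-to-mean ratio 31.5. Within 10 kb, there were 9342 sites, 6.95, 60.5%, 0.632 and 13.6. With HU lists cut to the length of APH replicate 1, there were 2989 sites, 13.1, 53.2%, 0.542 and 7.96, with 24.4% Alu bases. The reverse rule gave 61.6% in genes and a variance-to-mean ratio of 36.04. In protein-coding genes alone lay 51.6% of the sites. The rho with gene starts was 0.640 in 500 kb bins, 0.778 in 5 Mb bins and 0.661 with genes of all types, and the variance-to-mean ratio was 7.45 in 100 kb bins and 76.7 in 5 Mb bins. Of the alternatives, those that keep fewer sites lower the variance-to-mean ratio by construction, and the cause of the other shifts was not tested. With the strongest 4327 peaks of each list, the HU excess was 12.3 points in bins of more than 20 starts and 1.17 points within 1 kb of a start. The exact p was 0.0357 for both, not adjusted, and the cut falls mostly on the HU lists.

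Leaving out 1 list at a time gave 26429 to 66434 sites, a chromosome ratio of 5.30 to 8.44, 61.8% to 67.8% in genes, rho of 0.697 to 0.762, a variance-to-mean ratio of 34.6 to 51.1 and an Alu share of 18.5% to 20.9%. The largest number came from leaving out an HU list, where no replication can be asked. Between HU and the other lists, the difference ranged from 3.86 to 5.88 points in bins of more than 20 starts (5.88 without untreated replicate 1, exact p = 0.0476), from -3.36 to -0.636 in genes, from -0.368 to 0.112 in exons (reversed at 0.112 without MMS replicate 1), from 0.284 to 0.562 near starts and from 7.96 to 8.27 in Alu share. In site-rich bins, the difference from untreated was -8.11 to -2.92 points for APH and -5.96 to -0.759 for MMS.

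Between lists of the same replicate number, the correlations of the deviations from the group means ran from -0.154 to 0.169. Replicate 1 was nevertheless the longer list in each condition. Its share in bins of more than 20 starts was larger in untreated (25.4% against 21.1%), APH (19.0% against 15.5%) and MMS cells (19.7% against 16.5%). Under HU it was smaller (23.4% against 25.1%). Whether the replicate numbers pair the lists is therefore not settled. With the replicate number as a block, the pairing gave exact permutation p-values of 0.125, 0.75, 0.812 and 0.188 for the shares in bins of more than 20 starts, genes, exons and near starts, 0.5 for both comparisons of site-rich bins, and 0.0625 for the Alu share, with an unchanged difference of 8.11 points. The depth of each list was not known, and 2 lists per group limit each test.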
